A study of Mus musculus with 4 samples.

Results

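The segment examined was a stretch of mouse chromosome 11 from position 52096035 to 84727803 of build mm8, 32.6 Mb long, in mouse embryonic fibroblasts (MEFs), the connective-tissue cells grown from embryos. A gene was a member when its array probe lay between these positions and was well above background, by the scanner's flag, in at least 1 genotype on both arrays of a comparison. The brightest such probe stood for the gene. This gave 470 genes of 17468 measured in all, out of 728 gene names on the array within the bounds, and the rest of chromosome 11 gave 926. The bounds had been drawn with the log2 ratios along the chromosome in view, so that the members were selected on those ratios, and the difference between the segment and its surroundings is a description and has no test.

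Two-colour arrays compared MEFs lacking cyclin G1 (G1KO, genotype CycG1-/-) with a CycG1+/+ wild-type culture (WT), and MEFs labelled as lacking cyclin G2 (G2KO, CycG2-/-) with a CycG2+/+ WT culture. All 4 RNAs came from untreated cells in logarithmic growth in serum-containing medium, with C57BL/6J given as the strain, although the source names of the G2KO pair read C57BL/7J. In G1KO, a PGK-neo cassette took the place of every coding exon of Ccng1. Each comparison had 1 knockout and 1 WT culture and 2 arrays with the dyes exchanged, so there were no biological replicates, no test across genes was possible, and the ± values are the technical SD between the arrays of a pair. Values are log2 ratios of knockout over WT, on which 1 is a 2-fold difference. Where 2 values are given for a gene within 1 comparison, the first is from the array with the knockout RNA in Cy5. The second is from that with it in Cy3. In bulk RNA such as this, fewer cells of a type and less RNA per cell cannot be told apart.

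This stretch of chromosome 11 is dense in genes of many unrelated functions. It carries Trp53, which encodes the tumour suppressor p53, the clusters of inflammatory chemokines, Schlafen genes, type 2 cytokines and skeletal myosin heavy chains, and many genes that every dividing cell uses. When a long run of unrelated neighbours shifts together by a small amount, the shift can be seen only in the distribution over many genes and not in a single probe.

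The upstream sequences of a pair of neighbouring genes of the segment, Igtp and Irgm2, are shown here because these genes were both lower in the RNA labelled G2KO. Both encode interferon-inducible GTPases that defend cells against parasites within vacuoles. The sequences are the 250 bases before each start in RefSeq (GRCm38.p6), which is a later build than that of the array. Capitals mark the core of the interferon-stimulated response element, which is GAAA, any 2 bases and GAAA again.
Igtp promoter, chr11:58199306-58199555, plus strand: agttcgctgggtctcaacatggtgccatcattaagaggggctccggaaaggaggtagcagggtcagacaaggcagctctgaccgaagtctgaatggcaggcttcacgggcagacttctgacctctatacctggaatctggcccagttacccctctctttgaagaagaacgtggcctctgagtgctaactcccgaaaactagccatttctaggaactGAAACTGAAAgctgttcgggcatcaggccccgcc
Irgm2 promoter, chr11:58214727-58214976, plus strand: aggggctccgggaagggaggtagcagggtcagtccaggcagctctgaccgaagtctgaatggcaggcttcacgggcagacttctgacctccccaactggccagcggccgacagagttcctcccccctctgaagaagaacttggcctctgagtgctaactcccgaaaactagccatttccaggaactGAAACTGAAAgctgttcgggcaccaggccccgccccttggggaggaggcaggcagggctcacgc
The motif was searched on both strands. Its first base lay 34 bases before the start of Igtp and 64 bases before that of Irgm2. The best local alignment of the pair covered 221 columns, of which 197 were identical (89.1%). Both also held the interferon-gamma activated site TTCNNNGAA, which shared no base with the capitals. Of 32851 upstream sequences of this length, 2.98% held the first motif and 7.02% the second. Among 403 such sequences that matched 321 genes of the segment, the shares were 1.99% and 6.95%. These matches are descriptions of letters and not of binding.

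Some facts of the whole series touch these values. Ccng1 also lies on chromosome 11, 11.5 Mb below the lower bound, and gave -6.67 ± 0.13 for G1KO over its WT and 2.67 ± 0.03 for the RNA labelled G2KO over its own. Ccng2 was not reduced at its probe in the RNA labelled G2KO (0.09 ± 0.27), so directions in that comparison rest on the label. Xist was higher in both knockout RNAs, by 7.54 and 7.24, and the Y-linked Ddx3y was lower in both, with -4.97 and -4.26. The authors put the Xist rise down to a female origin of both knockout cultures, and Ddx3y was above background in both WTs. Sex markers thus differed along with genotype in each comparison, so sex and genotype cannot be told apart. All 10 fibroblast markers were above background in all 4 RNAs, but 6 of them were called lower in the RNA labelled G2KO (range -4.63 to 0.05), while 4 of 6 neural markers were called higher there (range -0.73 to 7.02). All 4 mesothelial markers were called lower in G1KO (range -5.92 to -2.79). The part that these differences between cultures played in the results was not tested.

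Genes of the segment were shifted upward as a body in the RNA labelled G2KO. Their median log2 ratio was 0.23 on the first array and 0.26 on the second, with 0.24 ± 0.02 for the pair over 449 genes. Of these, 77.7% were above 0, against 35.2% of the rest of chromosome 11 and 48.0% of all 16579 genes tested. In G1KO the segment lay slightly the other way. Its medians there were -0.08 and -0.09 on the arrays and -0.10 for their mean (SD between arrays 0.0074, 457 genes), and 35.9% of its genes were above 0 against 55.3% of the rest of the chromosome and 49.6% of all 16616 genes. The rest of chromosome 11 had medians of -0.12 ± 0.0042 for the G2KO pair and 0.03 ± 0.01 for the G1KO pair, so the segment minus the rest was 0.36 and -0.13. The size depended on the processing, since the median of the segment was 0.39 with the scanner's own ratio in the G2KO pair, and keeping dim probes as well brought it to 0.08 there and to -0.03 in G1KO.

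The middle 50% of the segment's genes ran from 0.02 to 0.50 for the G2KO pair and from -0.30 to 0.07 for the G1KO pair, and 70.2% and 80.5% of its genes differed by less than 0.5 on the log2 scale. Taking each array on its own, 322 genes of the segment (71.7%) were above 0 on both arrays of the G2KO pair, where the share of all genes was 39.9%, and 71 (15.8%) were below 0 on both, against 43.9% of all genes. In G1KO 120 genes (26.3%) were above 0 on both arrays against 40.1%, and 246 (53.8%) below 0 on both against 41.1%. These counts come from the values that set the bounds and support nothing beyond them.

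**Figure D1:**
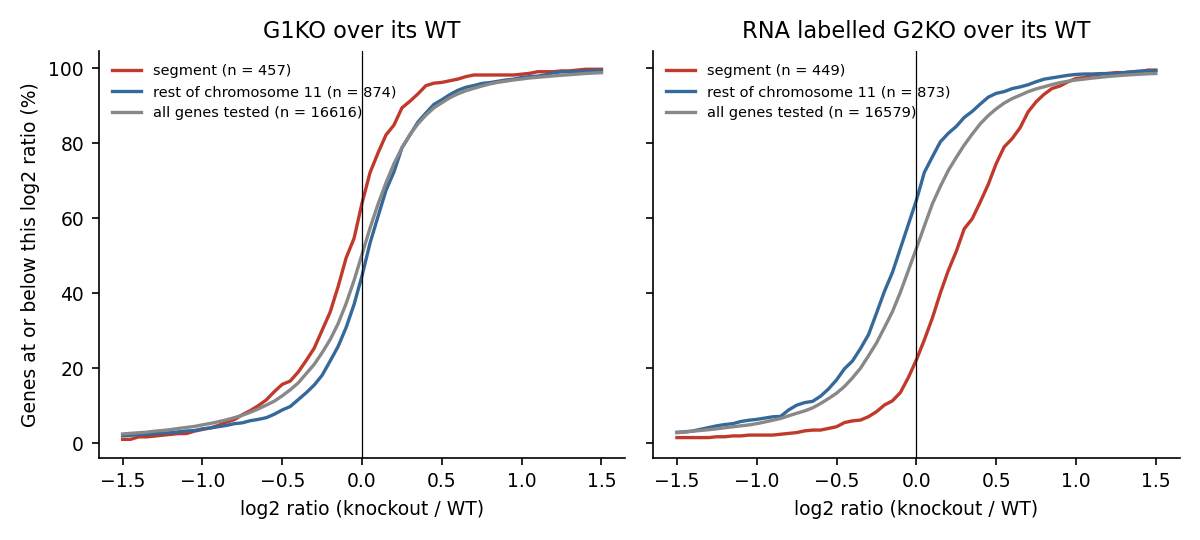
Cumulative share of genes (vertical axis, %) at or below each log2 ratio of knockout over WT (horizontal axis) for the segment, the rest of chromosome 11 and all genes tested. For the G2KO pair the curve of the segment lies to the right of both others at ratios below 1 (median 0.24), and in G1KO it lies to the left near 0 (median -0.10).

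Other chromosomes also had medians away from 0. Over the other 19 chromosomes tested, the medians ran from -0.29 on chromosome 10 to 0.14 on chromosome 3 in G1KO, and from -0.19 on chromosome 8 to 0.21 on chromosome 6 in the RNA labelled G2KO. The median of the segment in the RNA labelled G2KO was above this range, while that of chromosome 11 as a whole was -0.0014. In G1KO the median of the segment was within the range. The segment was selected on these ratios and is a part set beside whole chromosomes, so its place against these ranges is only a description.

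Along the chromosome the upward shift in the RNA labelled G2KO changed near both bounds, which had been drawn with these ratios in view. The segment was divided into 8 equal bins and the flanks into bins of 4 Mb counted from the bounds, and bins of 20 or more genes were read. All 7 such bins inside the segment had medians above 0, from 0.14 to 0.29. Of 14 outside, 13 had medians below 0, the lowest at -0.26, and the other, which adjoined the upper bound, had 0.01. In G1KO, 6 of the 7 bins inside were below 0, with medians from -0.19 to 0.03, and 11 of the 14 outside were above 0, with medians from -0.04 to 0.06.

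**Figure D2:**
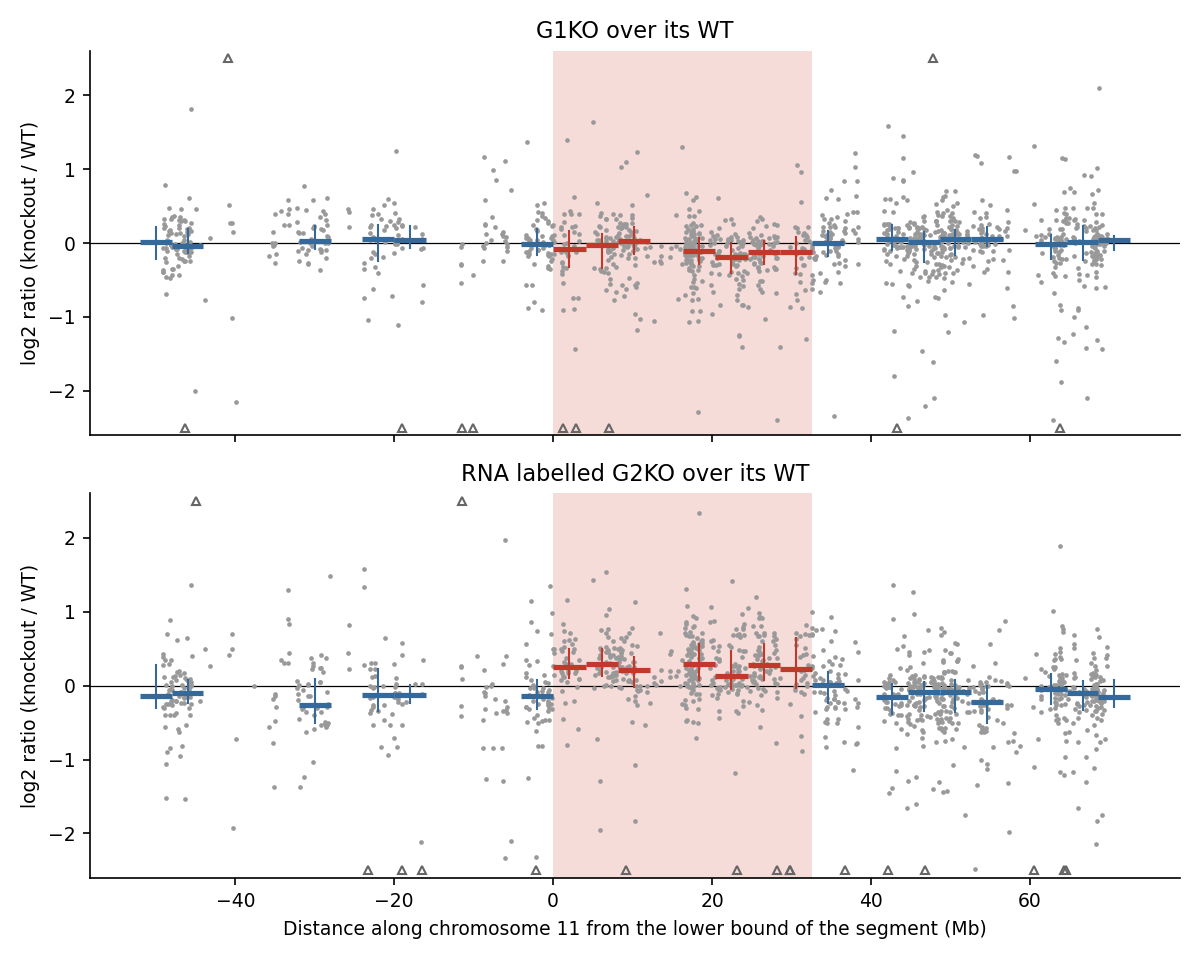
Log2 ratio of knockout over WT (vertical axis) of each gene of chromosome 11 against its distance in Mb from the lower bound of the segment (horizontal axis), with the segment shaded. Horizontal bars are medians of bins of 20 or more genes, thin vertical lines their middle 50%, and triangles genes beyond 2.5 in size. For the G2KO pair the 7 red bars inside the segment lie above 0 (0.14 to 0.29) and 13 of 14 blue bars outside lie below it. The bounds had been drawn with these ratios in view.

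Genes at the bounds gave the following values in the G2KO pair. The first 3 genes inside the lower bound were Tcf7, a transcription factor of T cells and Wnt signalling, with 0.50 ± 0.0075, Vdac1, the main channel of the outer mitochondrial membrane, with 0.43 ± 0.02, and AV036172, whose probe lies next to that of Vdac1, with 0.49 ± 0.03. Just outside were Skp1, a subunit of SCF ubiquitin ligases, with 0.26 ± 0.04, the pseudogene Olfr1372-ps1 with 0.98 ± 0.13, and 9430098F02Rik with -0.31 ± 0.02. At the upper bound the last 3 genes inside were Pigw, an enzyme of GPI-anchor synthesis (0.99 ± 0.23), Myohd1 (0.78 ± 0.13) and Znhit3 (0.68 ± 0.03), and just outside lay the deubiquitinase Usp32 (0.13 ± 0.07), TC1665442 (0.40 ± 0.15) and an unnamed probe (-0.08 ± 0.13). Positive ratios thus went on for a few genes past either bound. Over runs of 10 genes, the medians were -0.10 below the lower bound, 0.34 just inside it, 0.48 just inside the upper bound and 0.11 above that. In G1KO the same runs gave -0.09, -0.05, -0.10 and -0.21, so the sign of the median changed at neither bound there.

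The shift in the RNA labelled G2KO was larger among brighter genes of the segment. With all genes of the array split into 3 equal classes of brightness, the medians of the segment were 0.07 in the dimmest, 0.31 in the middle and 0.39 in the brightest class. In the rest of chromosome 11 they were -0.06, -0.11 and -0.19. In G1KO the segment had -0.04, -0.16 and -0.11. Strand made little difference, with medians of 0.24 on either strand for the G2KO pair and of -0.10 on either strand for the G1KO pair. Of the segment's genes, 420 of 449 in the G2KO pair and 427 of 457 in the G1KO pair were above background in both genotypes on both arrays, and their medians were 0.26 and -0.11.

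The 4 RNAs can also be set against one another across pairs, over 436 genes of the segment measured in both comparisons. Such differences join signals from separate arrays within a dye, after normalisation of the channels, and each comparison of this kind shares cultures with others. The WT of the G2KO pair stood apart in the rest of chromosome 11, where it was higher than every other RNA. Its segment genes were lower than those of the other WT by a median of 0.17 on the log2 scale (median difference -0.17 ± 0.02), while the rest of chromosome 11 was higher (0.20 ± 0.02) and all genes were at 0.05. Against G1KO, the same WT had -0.05 in the segment, 0.17 in the rest of the chromosome and 0.06 over all genes. That was the smallest segment difference between any of these RNAs under this normalisation, before the median of all genes is subtracted. After subtraction it was -0.11, and the smallest was then 0.04, for the RNA labelled G2KO minus the WT of the G1KO pair. The RNA labelled G2KO had 0.09 in the segment, 0.08 in the rest and 0.05 over all genes against the WT of the G1KO pair. Against G1KO it had 0.18 in the segment, 0.05 in the rest and 0.06 over all genes. Within this set of genes the pairs themselves gave 0.24 for the G2KO pair and -0.10 for the G1KO pair, each knockout against its own WT. Quantile normalisation of all 8 channels kept the sign of every segment median, but moved that of the WT of the G2KO pair minus G1KO to -0.09 and that of G1KO minus its own WT to -0.05, with all genes at 0.02 and 0.05.

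**Figure D3:**
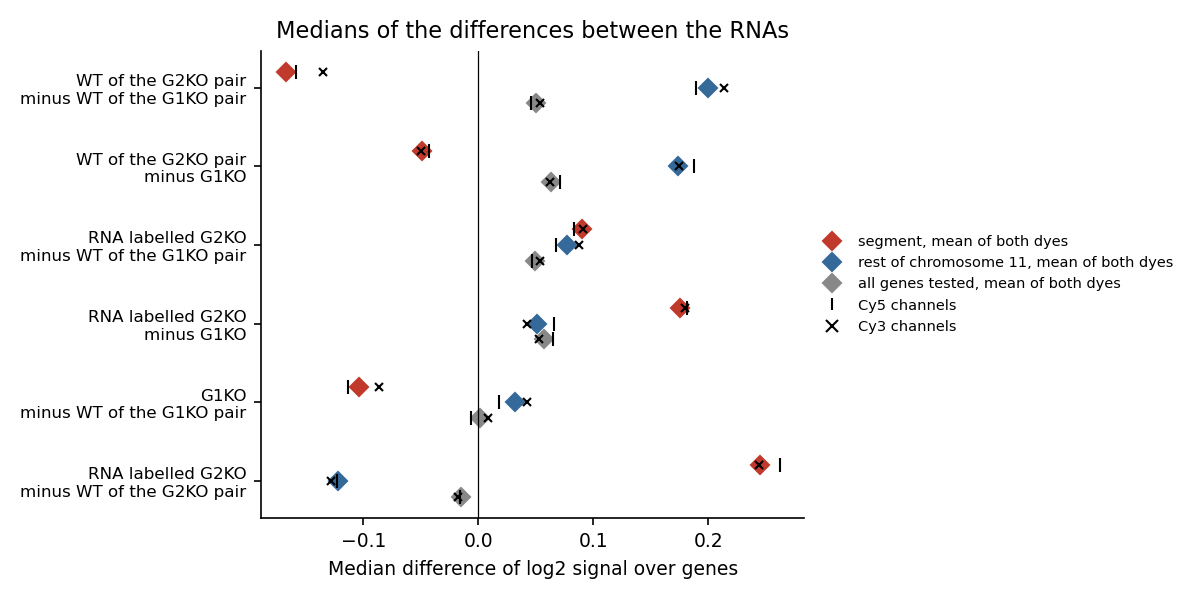
Median differences of log2 signal between the 4 RNAs (horizontal axis), 1 row per pair of RNAs, for the segment, the rest of chromosome 11 and all genes tested, with diamonds for the median over genes of the mean of both dyes and marks for the medians in either dye. All rows but that of the RNA labelled G2KO minus the WT of the G1KO pair show the segment and the rest on opposite sides of all genes. In the top row they lie at -0.17 and 0.20. For the RNA labelled G2KO minus G1KO, the rest lies close to all genes (0.05 and 0.06).

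Gene by gene, 219 of the 436 genes (50.2%) were lower in G1KO and higher in the RNA labelled G2KO than in their own WT, against 24.5% of 15727 genes in all. Another 122 were higher in both, 63 lower in both, and 32 the reverse of the first group. The bounds had been drawn with these ratios in view. Taken singly, 78.2% of the 436 genes were higher in the RNA labelled G2KO and 35.3% were higher in G1KO. The count of 219 was not tested against what these shares give by themselves. It therefore shows no opposition gene by gene beyond the shifts already described. No WT was shared between the comparisons. The direction of the G2KO ratio rests on the label, and were that pair turned, the same 219 genes would be lower in both.

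Genes of general cell maintenance in the segment were mostly above 0 in the RNA labelled G2KO, as were most genes of the segment. The segment was selected on these ratios, with 77.7% of its genes above 0 in that RNA and 35.9% in G1KO. Counts near these shares in the lists by role below say nothing particular of a role. In the list of DNA repair and cell cycle genes, 15 of 16 measured members were above 0, the median was 0.71 and 1 was called higher. Aurkb, the mitotic kinase of the chromosomal passenger complex, was the called one, with 1.31 and 1.30. Rpa1, the large subunit of the single-strand binding protein RPA, had 0.77 ± 0.01 without being called, Spag5, a spindle protein, had 0.93, and Lig3, a DNA ligase of base excision repair and mitochondria, had 0.71. Cdk5r1, the neuronal activator of CDK5, was the member below 0, with -0.16. In G1KO, 8 of the 16 were above 0 and 0 were called, and the median of -0.01 changed sign with the normalisation. Among markers of proliferation outside the segment, 0 of 4 were called in the RNA labelled G2KO but all lay above 0 (0.45 to 0.81), and their part in these values was not tested.

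Mitochondrial proteins behaved alike. Of 17 measured members, 16 were above 0 in the RNA labelled G2KO with a median of 0.45, and in G1KO 3 of 17 were, with a median of -0.15. Of the 17, 0 were called in either comparison. Slc25a11, the oxoglutarate carrier, had 0.56 against WT in the G2KO pair and -0.31 in the G1KO pair. Aldh3a2, fatty aldehyde dehydrogenase, had 0.61 in the G2KO pair and -0.71 in the G1KO pair. Acadvl, which starts the oxidation of very long chain fatty acids, had -0.01 and -0.59 in the same order of pairs. In the list of proteasome, translation and transcription machinery, 23 of 25 members were above 0 for the G2KO pair (median 0.34) and 10 of 25 for the G1KO pair (median -0.04), with 0 called. Rpl26, a protein of the large ribosomal subunit, had 0.72 ± 0.37 in the G2KO pair. In the G1KO pair it had -0.17 ± 0.37, where the SD exceeded the value. Eif4a1, the helicase of cap-dependent translation, had 0.39 in the G2KO pair and -0.27 in the G1KO pair. Taf15, an RNA-binding protein, went the other way, with -0.42 in the G2KO pair and 0.96 in the G1KO pair, and was not called.

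Tumour suppressors and signalling genes followed the same order. Of 9 tumour suppressors measured, 8 were above 0 for the G2KO pair (median 0.31) and 2 for the G1KO pair (median -0.12). Trp53 had 0.42 and 0.49 on the arrays of the G2KO pair and -0.12 ± 0.02 in G1KO. Nf1, which encodes neurofibromin, a brake on RAS, had 0.38 in the G2KO pair and -0.01 in G1KO. Neither was called. Hic1, a transcriptional repressor that is silenced in many tumours, was called lower in the RNA labelled G2KO, with -1.21 and -1.16. Of 20 kinases and signalling adaptors, 16 were above 0 for the G2KO pair (median 0.32, 0 called) and 8 for the G1KO pair (median -0.14, with Pik3r5 called higher and Dusp14 lower). The adaptor Traf4 had 0.98 in the G2KO pair and -0.01 in the G1KO pair, and the 14-3-3 protein Ywhae 0.65 and -0.14. Ppp2ca, the catalytic subunit of the phosphatase PP2A with which cyclin G proteins form complexes, lies below the lower bound and had -0.17 against WT in the G2KO pair and 0.23 in the G1KO pair.

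Lipid genes showed the largest downward median of any list in G1KO under the reported normalisation. Among 13 measured, 4 were above 0 and the median was -0.39, with Gm2a called. Pemt, which makes phosphatidylcholine in the liver, had -0.78, and the phospholipase Pld2 -0.76. In the G2KO pair 13 were also measured, with Aloxe3 in the place of Gpx3. Of these, 11 were above 0 in the RNA labelled G2KO, with a median of 0.17 and 0 called. Ion channels, receptors and synaptic genes had medians of 0.19 (7 of 10 above 0) and -0.07 (3 of 10), with Gria1 called higher in both. Homeobox and developmental transcription factors had 0.31 (6 of 8) and -0.08 (3 of 8), with Hic1 called lower in the RNA labelled G2KO. The type 2 cytokine cluster with its neighbours had 0.29 (9 of 11 above 0) in the RNA labelled G2KO, and its G1KO median of -0.01 (5 of 10) changed sign with the normalisation. Pdlim4, an actin-associated LIM protein at that cluster, was called higher in both. In the list of the skeletal myosin heavy chain cluster and its neighbours, no skeletal myosin gene was measured. Its measured members were Sco1, Adprm, the non-muscle myosin gene Myh10 and, in G1KO, Gas7. Of these, 2 of 3 were above 0 for the G2KO pair (median 0.43) and 2 of 4 for the G1KO pair. The G1KO median was 0.00, and its sign changed without a replicate array and with the stricter filter. All 3 Schlafen genes measured in G1KO were above 0 (median 0.21), and none passed the filter in the G2KO pair.

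The list of secreted matrix and guidance proteins and that of chemokines did not share the upward shift. The first list also held intracellular and membrane proteins, such as Tnfaip1, Aspa and Pmp22, so its values are not those of secreted proteins alone. Of its 18 measured members, 9 were above 0 in the RNA labelled G2KO, while 3 were called lower and 1 higher. The median was -0.01, which changed sign with the normalisation. In G1KO 4 of 18 were above 0 (median -0.24), with 2 called lower and 1 higher. Sparc, a matrix glycoprotein of fibroblasts, had -0.36 and -0.82 in the G2KO pair and -0.74 ± 0.06 in G1KO, and was not called. All 5 measured chemokines of the Ccl cluster were below 0 in the RNA labelled G2KO (median -0.88, range -3.27 to -0.24), and 2 of them were called. In G1KO, where Ccl6 was measured in the place of Ccl8, 1 of 5 was above 0 and 0 were called (median -0.07, range -0.88 to 0.55).

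**Figure D4:**
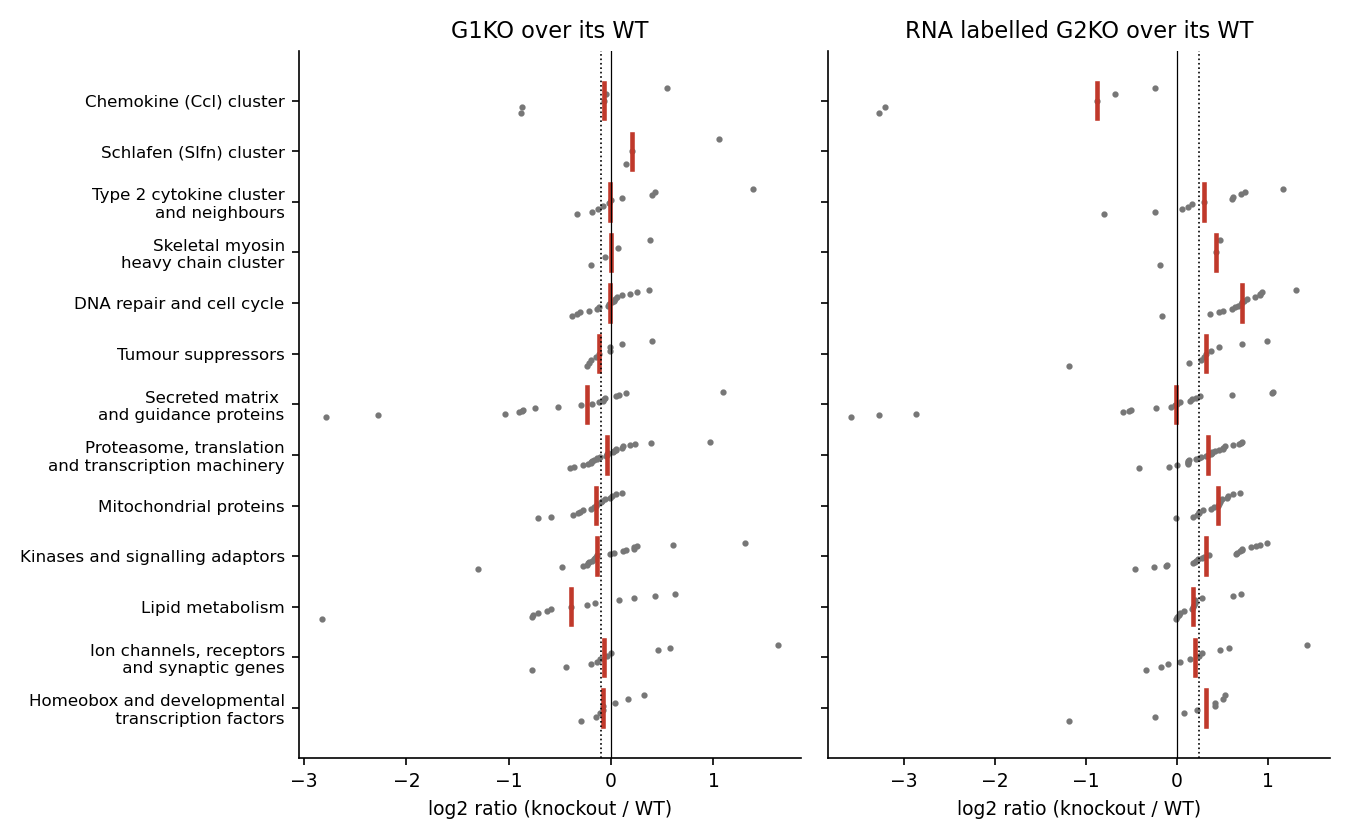
Log2 ratio of knockout over WT (horizontal axis) of each measured member (points) of the gene lists of the segment (vertical axis), with the median of each list (red bar), 0 (solid line) and the median of the whole segment (dotted line). For the G2KO pair the DNA repair and cell cycle genes have the highest median (0.71) and the chemokines the lowest (-0.88).

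Few genes of the segment differed by a large amount. To be called, a gene had to reach 1 or more, or -1 or less, on both arrays of its comparison. In the RNA labelled G2KO, 10 genes of 449 (2.23%) were called higher, against 2.73% of all genes, and 9 (2.0%) lower, against 4.84%. In G1KO 6 of 457 (1.31%) were called higher, against 2.48% of all genes, and 14 (3.06%) lower, against 4.46%. The shares called were thus near or under those of all genes. Centring each array on its median in place of loess turned the 10 higher and 9 lower in the RNA labelled G2KO into 3 and 8.

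The largest falls in the RNA labelled G2KO were those of secreted proteins. Serpinf1 (chr11:75226261-75226320), which encodes PEDF, an inhibitor of new vessel growth secreted by fibroblasts, had -3.53 and -3.63, and its second probe gave -2.61. The chemokines Ccl2 (chr11:81853343-81853402) and Ccl7 (chr11:81863349-81863408), which both attract monocytes, had -3.03 and -3.51, and -3.24 and -3.18. Both arrays of the pair placed these genes about 3 log2 units or more below WT. The microfibril protein gene Mfap4 (chr11:61304789-61304848) had -2.91 and -2.82, and the class I myosin gene Myo1d (chr11:80298410-80298469) had -2.65 and -2.62. The fall of Myo1d was seen at its brightest probe, whereas its other probes gave -0.54 and -0.42.

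The GTPase genes introduced above with their upstream sequences followed. Igtp (chr11:58023620-58023679) had -2.09 and -1.81, and Irgm2 (chr11:58038757-58038816) had -1.20 and -1.37, with the RNA labelled G2KO above background at Irgm2 on 1 of 2 arrays. In G1KO they had 0.21 ± 0.10 and -0.35 ± 0.22, uncalled. These genes belong to a family of near-identical copies, between which the probes may share signal. Of the 9 genes called lower, 5 had upstream sequences in the table, and Igtp and Irgm2 were the ones that held the core of the interferon-stimulated response element. Trpv2, a cation channel, had -1.73 and -1.92.

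The largest rise in the RNA labelled G2KO was that of Eno3 (chr11:70478622-70478681), the muscle form of the glycolytic enzyme enolase, with 2.16 and 2.52. H2bu2, a histone H2B gene, had 1.49 and 1.58, and histone genes are near-identical copies. Gria1, a subunit of the AMPA glutamate receptor, had 1.35 and 1.49. Sgsm2, a Rab GTPase regulator, had 1.44 and 1.38. Aurkb and its neighbour Tmem107, a protein of the primary cilium, had 1.31 ± 0.0072 and 1.07 ± 0.06, and Cenpv, a protein of the centromere and of cytokinesis, 1.13 ± 0.13. The remaining called genes were ENSMUST00000092884 (1.20 ± 0.15), Pdlim4 and Wnt9a.

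The 14 genes called lower in G1KO shared Myo1d with the 9 called lower in the RNA labelled G2KO. Which comparison had more falls depended on the processing, with 5 in G1KO and 8 in the G2KO pair under median centring, and 5 in each at a threshold of 2. Gm2a (chr11:54953777-54953836), the activator protein that presents ganglioside GM2 for breakdown in lysosomes, had -2.70 and -2.95, and its second probe gave -2.54. Shroom1 (chr11:53310607-53310666), of a family of cytoskeletal regulators, had -2.92 and -2.73. Wnt9a (chr11:59149389-59149448), a Wnt ligand of joint formation, had -2.65 and -2.92. Myo1d again gave about the same on either array, with -2.43 and -2.37, and its other probes gave -0.58 and -1.04. Cxcl16, a membrane-bound chemokine and scavenger receptor, had -2.31 and -2.25. The rest ran from -1.43 for Ccdc69 to -1.05, among them Tmem98 (-1.40), the actin-binding Rflnb (-1.40), the dual-specificity phosphatase Dusp14 (-1.30) and Myo1c (-1.26). At Rflnb the other probe gave -0.65.

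The rises in G1KO were smaller. Gria1 had 1.52 and 1.74, with its WT above background on 1 of 2 arrays, but its other probe gave 0.0041. Pdlim4 had 1.5 and 1.28, and its other probe 0.19. Pik3r5, a regulatory subunit of the phosphoinositide 3-kinase of blood cells, had 1.24 and 1.37. Zfp286, a zinc-finger protein gene, had 1.31 and 1.14 and a second probe at 1.37. Mfap4 and Shmt1, the cytosolic serine hydroxymethyltransferase of one-carbon metabolism, just passed the threshold, with 1.0 and 1.19, and 1.0 and 1.06. The WT was above background at Mfap4 on 1 of 2 arrays, and the other probe of Shmt1 gave 0.56.

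**Figure D5:**
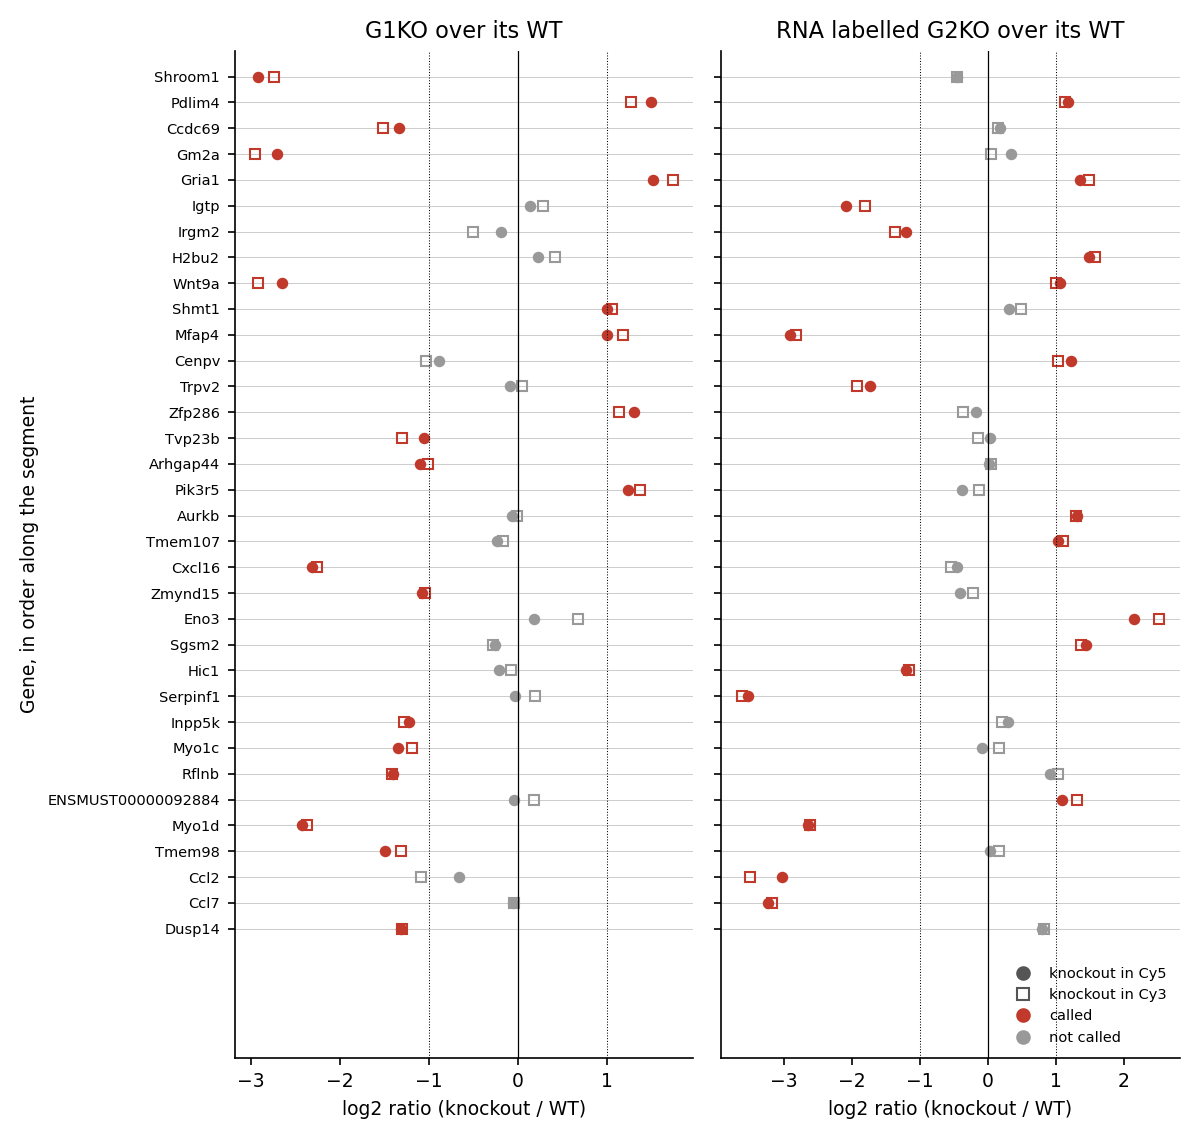
Log2 ratio of knockout over WT (horizontal axis) on each array for every gene of the segment called in either comparison (vertical axis, in order along the chromosome), with filled circles for the array with knockout RNA in Cy5, open squares for that in Cy3, and dotted lines at the threshold of 1 in size; the panels have separate horizontal scales. Both arrays of a pair lie close together for most genes, and Wnt9a and Mfap4 lie on opposite sides of 0 in the comparisons.

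Of the 436 genes measured in both comparisons, 5 (1.15%) were called in both, against 2.12% of 15727 genes in all. Wnt9a was lower in G1KO (-2.78 ± 0.19) and higher in the RNA labelled G2KO (1.04 ± 0.04). Mfap4 did the reverse, with 1.09 ± 0.13 in G1KO and -2.87 ± 0.06 in the other comparison. Whether these effects differ beyond the variation between cultures was not tested. Gria1 and Pdlim4 were higher in both and Myo1d lower in both, and each of these had a probe with a smaller ratio. For the RNA labelled G2KO over its WT the other probe of Gria1 gave 0.38 and that of Pdlim4 0.05.

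Some genes called in the same direction were neighbours, at shares of pairs near or under those over all chromosomes. Among 456 pairs of adjacent measured genes in G1KO, 4 had both members called lower (0.88% of pairs, against 0.86% over all chromosomes). These were Ccdc69 with Gm2a, Cxcl16 with Zmynd15, Inpp5k with Myo1c, and Myo1d with Tmem98, with 10.1 to 340 kb between their probes, and Zmynd15, Inpp5k, Myo1c and, above, Tmem107 are named after their values were seen. The G2KO pair had 2 of 448 (0.45%, against 1.02%), Igtp with Irgm2 (15.1 kb apart) and Ccl2 with Ccl7 (10.0 kb apart). In either comparison 0 pairs of neighbours in the segment were called in opposite directions, and over all chromosomes the shares were 0.12% in G1KO and 0.21% in the G2KO pair.

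The arrays of a pair agreed closely on the segment. Across its genes, which are not independent replicates, they correlated at r = 0.925 in G1KO and r = 0.945 in the G2KO pair, and the median SD between them was 0.08 in both comparisons. Repeated hybridisation of the same RNA shows the error of the arrays and not the spread between cultures.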

How the data were processed

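The arrays were Agilent whole-genome mouse arrays with 4 hybridisations. The authors quantified spots with Agilent Feature Extraction (10.5.1.1 per the file headers, 9.1 per the labels' processing notes). They deposited, for each spot, the linear intensity of both channels without normalisation and the scanner's log10 ratio of Cy5 over Cy3. The series table deposited by the authors repeats that log10 ratio as knockout over WT, and its scale and direction were found by setting it against the scanner values.

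Intensity was corrected with normexp (offset 50) and loess in limma 3.58.1 (R 4.3.3), without control spots and flagged outliers (114 to 203 per array), and turned to log2 of knockout over WT. No spot was saturated. No p-value was computed, since a dye-swapped pair counts as 1 replicate. Levels between RNAs used loess followed by Aquantile normalisation. Positions are those of the array files (mm8). Of 1051 probes within the bounds, 693 passed the filter. RefSeq names (GRCm38.p6) were found for all but 171 of the probes, which kept the file's name.

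The segment, the lists and the alternatives were chosen with earlier results of these data known. Genes named were the 8 largest called rises and falls per comparison above background in both genotypes, up to 3 largest bounds per direction, the 3 genes either side of each bound, 6 genes of interest (Trp53, Ppp2ca, Rpa1, Nf1, Sparc and Ccng1), list members, and genes called in both comparisons, besides a few named after their values were seen. The loess step was tested on simulated data. Alternatives were other normalisations, filters, probe rules, bounds, thresholds, and leaving out either array. The number of arrays limits the precision.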

Additional observations from a re-analysis of the deposited data

Results flagged for a closer look

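Some values had opposite signs on every array of the comparisons. The differences between comparisons were not tested, as each rests on 1 culture per genotype. They also rest on the label of the G2KO pair, in which Ccng2 was not reduced at its probe. Were that pair turned, every second value below would change sign and the values of each item would share a sign. The segment's median log2 ratio was -0.10 for the G1KO pair and 0.24 for the G2KO pair, and its difference from the rest of chromosome 11 was -0.13 and 0.36. Among the gene lists, the medians of the G1KO and G2KO pairs were -0.0072 and 0.71 for DNA repair and cell cycle (the first changed sign with the normalisation), -0.12 and 0.31 for tumour suppressors, -0.041 and 0.34 for proteasome, translation and transcription machinery, -0.15 and 0.45 for mitochondrial proteins, -0.14 and 0.32 for kinases and signalling adaptors, -0.39 and 0.17 for lipid metabolism, -0.071 and 0.19 for ion channels, receptors and synaptic genes, and -0.083 and 0.31 for homeobox and developmental transcription factors. Among single genes called in both, Wnt9a had -2.78 and 1.04, and Mfap4 had 1.09 and -2.87.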

How the results depend on the processing

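The segment's median kept its sign under all 15 alternatives run, from -0.11 to -0.029 in G1KO and from 0.079 to 0.39 in the RNA labelled G2KO, and so did its difference from the rest of chromosome 11 (-0.17 to -0.042 and 0.11 to 0.51). Counts of called genes depended on the normalisation and threshold, and the cause was not tested. The labels number no replicates within a group beyond the dye swap. No paired analysis was possible because each comparison had 1 culture per genotype.

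Values that moved by more than the SD between arrays, and counts that moved by over 1.5 times, were these. Medians of the segment in G1KO were -0.11 with a normexp offset of 10 and with both genotypes above background, -0.065 with median centring, -0.080 with the scanner's ratio and with the series table, -0.082 with every probe, -0.085 with the mean over probes, and -0.029 without a filter on dim probes. In the RNA labelled G2KO they were 0.29 with the offset of 10 and with median centring, 0.39 with the scanner's ratio and the series table, 0.26 when centred on autosomal genes outside the segment, and 0.079 without a filter. The segment minus the rest in G1KO was -0.15 with the offset of 10, -0.17 with the scanner's ratio and the series table, -0.14 with both genotypes above background, -0.042 without a filter, -0.12 with the mean over probes, and -0.13 with bounds 1 Mb outward and without the gene clusters. In the RNA labelled G2KO it was 0.38 without background correction, 0.44 with the offset of 10, 0.51 with the scanner's ratio and the series table, 0.11 without a filter, and 0.33 with the mean over probes. Leaving out either array gave -0.094 and -0.084 for the median in G1KO, -0.13 and -0.12 for its difference from the rest, and 0.35 and 0.38 for that difference in the RNA labelled G2KO.

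Genes called higher and lower in G1KO numbered 3 and 5 with median centring, 15 and 24 with the scanner's ratio and the series table, 0 and 5 at a threshold of 2, and 14 and 60 at 0.5. The mean over probes called 3 higher. In the RNA labelled G2KO they numbered 29 and 20 with the scanner's ratio and the series table, 1 and 5 at a threshold of 2, and 91 and 17 at 0.5. Median centring called 3 higher, and the offset of 10 called 14 lower.

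Between cultures, quantile normalisation of all channels gave segment medians of -0.093 for the WT of the G2KO pair minus G1KO, 0.13 for the RNA labelled G2KO minus the WT of the G1KO pair, 0.17 for the RNA labelled G2KO minus G1KO, -0.050 for G1KO minus its WT and 0.29 for the RNA labelled G2KO minus its WT. Genes above background in both genotypes of both pairs gave -0.055 for the WT of the G2KO pair minus G1KO, 0.19 for the RNA labelled G2KO minus G1KO and 0.26 for the RNA labelled G2KO minus its WT.

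Over 67 values of named genes, 438 of 601 recomputed values stayed within the SD between arrays and 0 called values changed sign. Of 25 list medians, 4 changed sign under some alternative, those given above as near 0.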
